A study of Arabidopsis thaliana with 14 samples.

Results

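The transcripts of 2 Arabidopsis genes that open the breakdown of amino acids were followed through a night that did not end. AT4G33150, also called LKR/SDH, encodes lysine-ketoglutarate reductase/saccharopine dehydrogenase, the bifunctional enzyme that starts lysine breakdown. MGL, locus AT1G64660, encodes methionine gamma-lyase. Members were the probe sets annotated to exactly 1 of these genes, which gave 2 of the 13513 probe sets with a single gene (13356 genes), among 22746 probe sets tested. Each gene was read by 1 probe set, 253373_at for AT4G33150 and 261957_at for MGL. RefSeq lists 4 transcripts for AT4G33150 and 1 for MGL, and the single probe set does not tell transcripts of AT4G33150 apart.

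Lysine and methionine are both made from aspartate and lose their carbon by separate routes. LKR/SDH joins lysine to 2-oxoglutarate as saccharopine and splits this to aminoadipic semialdehyde, which is oxidised in further steps. Their electrons can reach the mitochondrial respiratory chain through the electron-transfer flavoprotein (ETF) and its ubiquinone oxidoreductase (ETFQO). MGL cleaves methionine to methanethiol, ammonia and 2-oxobutyrate, a keto acid that can feed isoleucine synthesis or be oxidised. Plants draw on amino acids as respiratory fuel when carbohydrate runs low.

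The arrays measured whole rosettes of Columbia-0 plants, 5 to 6 weeks old and vegetative, that had grown in a 14 h photoperiod, with 3 rosettes per sample. No genotype other than Columbia-0 and no treatment other than continued darkness was used. Of the 14 arrays, 1 was taken 2 h before the usual dawn and 3 (A, B and C) at that dawn, labelled end of night. In the extended night there were 1 at 2 h, 2 at 4 h (A and B), 1 at 6 h, 2 at 8 h (A and B), 2 at 24 h (B and C) and 2 at 48 h (B and C). Values are log2 units of signal after the authors' RMA normalization, a multi-array method that makes the arrays alike in distribution. The labels do not say whether replicate samples were grown separately, so p-values measure the spread between these samples. In whole rosettes, a different make-up of cells and a different RNA level per cell cannot be told apart. Clock time and length of darkness also cannot be told apart at 2 h to 8 h, whereas samples at 24 h and 48 h shared the hour of day with the end of the night.

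Array medians lay between 6.62 and 6.77. Of the organ markers listed, 1 of 8 for rosette leaf, 1 of 4 for root, 0 of 4 for flower and 0 of 4 for seed had a probe set with a single gene. The leaf marker RCA, Rubisco activase, had a median of 13.68 and fell as low as 9.85, on 48 h array B. The root marker PYK10, a beta-glucosidase, lay between 7.65 and 9.47 over all arrays, and its part in the results was not tested. The 25S ribosomal RNA control was at 8.98 on 48 h array B and 13.66 on 48 h array C, so the 48 h differences of both genes and of the listed genes named at that time are also given without array B. The control also varied at other times. It was at 11.49 and 13.78 on 24 h arrays B and C, 12.96 and 11.23 on 4 h arrays A and B, and 11.05 at -2 h. On 8 h arrays A and B it was at 13.37 and 13.22. Its part in the results was not tested.

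MGL was low before the darkness was extended and very high after it. Its signal was 6.79 on the array 2 h before the usual dawn and 7.18, 7.36 and 6.40 on end of night arrays A, B and C. It was 7.66 at 2 h, 10.96 and 10.58 at 4 h, 12.08 at 6 h, and 12.09 and 11.86 at 8 h. It reached 12.69 and 12.16 at 24 h and 13.20 and 12.97 at 48 h. Every array from 4 h on lay above every array up to 2 h.

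AT4G33150 started at a similar point in its own range and ended almost as far above it. Its signal was 7.29 on the earliest array and 7.40, 7.32 and 6.38 at the night's end. It was 7.57 at 2 h, 9.50 and 8.96 at 4 h, 11.27 at 6 h, and 11.68 and 11.54 at 8 h. It reached 11.95 and 11.38 at 24 h and 13.12 and 12.44 at 48 h. Here too all arrays from 4 h on were above all arrays up to 2 h. A looser rule asked only that every array of a single time be above every end of night array. At 4 h, 20.8% of all probe sets met it, and the share was 25.2% at 8 h, 28.9% at 24 h and 29.9% at 48 h. The share that met the stricter rule was not counted.

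**Figure D1:**
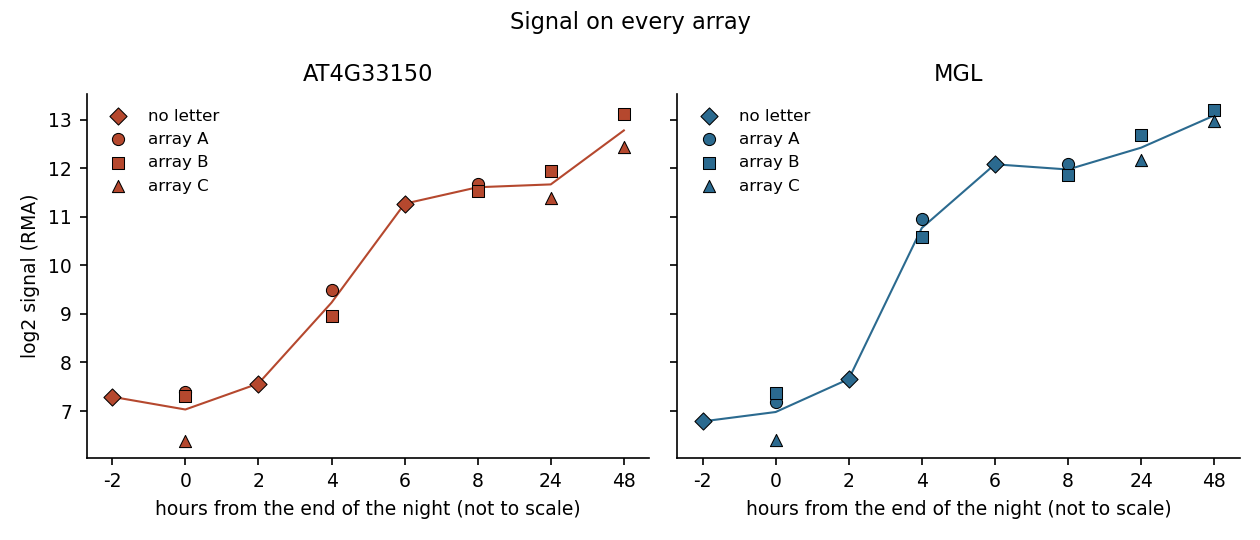
Log2 signal of AT4G33150 (left) and MGL (right) on each of the 14 arrays, against hours from the end of the night with times evenly spaced. Symbols give the replicate letter and lines join time point means. Arrays up to 2 h lie between 6.38 and 7.66, and those from 4 h on between 8.96 and 13.20.

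Neither gene was called at 2 h, where there was 1 array. MGL was at 0.68 ± 0.35 log2 units against the night's end (limma estimate ± standard error, adjusted p = 0.782) and AT4G33150 at 0.53 ± 0.43 (adjusted p = 0.942). Only 0.435% of probe sets were called at that time at an adjusted p under 0.05, and the 95% intervals reached 1.48 for MGL and 1.50 for AT4G33150. On the array 2 h before dawn MGL was at -0.19 ± 0.35 and AT4G33150 at 0.26 ± 0.43 (both adjusted p = 0.998), where 0.00879% of probe sets were called.

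At 4 h both genes rose, and MGL by far more than AT4G33150. MGL rose by 3.79 ± 0.28 log2 units, or 13.8-fold (n = 2 arrays, with n = 3 for the night's end, limma adjusted p = 4.35e-05). AT4G33150 rose by 2.20 ± 0.34, or 4.60-fold (limma adjusted p = 0.00232). Ordered by the size of the rise among all 22746 probe sets, MGL was at place 16 and AT4G33150 at place 139. Rises were called for 7.49% of probe sets at 4 h.

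At 6 h, on 1 array, the difference was 5.10 ± 0.35 for MGL (34.3-fold, limma adjusted p = 3.29e-05) and 4.24 ± 0.43 for AT4G33150 (18.9-fold, limma adjusted p = 2.44e-04), with 8.29% of probe sets called higher. At 8 h it was 4.99 ± 0.28 for MGL (31.9-fold, limma adjusted p = 3.20e-06) and 4.58 ± 0.34 for AT4G33150 (23.9-fold, limma adjusted p = 1.55e-05). At that time 12.7% of probe sets were called higher, and MGL and AT4G33150 were at places 12 and 19 by size.

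Both transcripts were still high after a day and after 2 days of darkness, at the hour of day of the end of night samples. At 24 h MGL was 5.44 ± 0.28 above the end of the night (43.5-fold, limma adjusted p = 1.39e-06) and AT4G33150 4.64 ± 0.34 above it (24.9-fold, limma adjusted p = 9.41e-06). At 48 h MGL was up by 6.11 ± 0.28 (68.8-fold, limma adjusted p = 3.41e-07) and AT4G33150 by 5.75 ± 0.34 (53.7-fold, limma adjusted p = 1.33e-06). Rises were called for 15.5% of probe sets at 24 h and 20.5% at 48 h. Without 48 h array B the 48 h differences were 5.99 for MGL and 5.40 for AT4G33150, and both were still called (adjusted p = 5.47e-06 and 1.55e-05).

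**Figure D2:**
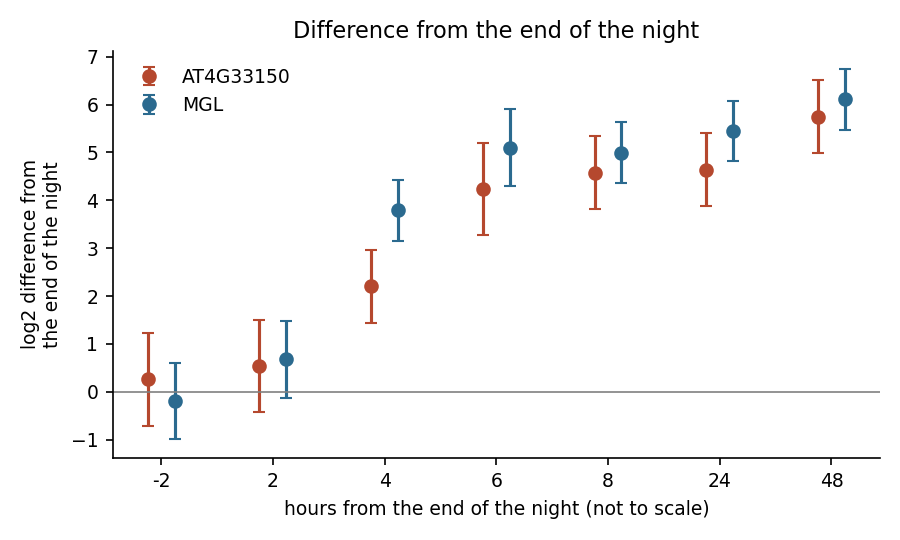
Difference in log2 signal from the end of the night for AT4G33150 and MGL at each other time, with 95% confidence intervals from the limma fit (n = 1 or 2 arrays against n = 3). Intervals include 0 at -2 h and 2 h and exclude it from 4 h on.

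On the log2 scale, most of the climb was made in the first 8 h. This does not hold for linear signal. There MGL was at 4355 and 3716 at 8 h, and at 9397 and 8036 at 48 h. AT4G33150 was at 3285 and 2969 at 8 h, and at 8911 and 5538 at 48 h. Taking the 48 h difference in log2 units as 100%, MGL had made 11.1% of it at 2 h, 62.1% at 4 h, 83.6% at 6 h and 81.8% at 8 h. AT4G33150 had made 9.31% at 2 h, 38.3% at 4 h, 73.7% at 6 h and 79.6% at 8 h. At 24 h the shares were 89.2% for MGL and 80.7% for AT4G33150. With 48 h array B left out, the shares at 4 h were 63.3% for MGL and 40.7% for AT4G33150, and those at 8 h were 83.3% and 84.7%. A straight line through the 10 arrays between -2 h and 8 h gave 0.64 ± 0.07 log2 units per hour for MGL (limma adjusted p = 2.88e-05) and 0.54 ± 0.05 for AT4G33150 (limma adjusted p = 2.39e-05). A rising slope was called for 16.5% of probe sets. The moderated F-test over all 8 times called both genes (adjusted p = 2.35e-06 for MGL and 1.24e-05 for AT4G33150), as it did 35.5% of probe sets.

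The steps between replicated times within the extended night were less certain. At 8 h AT4G33150 was above its 4 h level by 2.38 ± 0.37 (limma adjusted p = 0.00983), with rises called for 1.66% of probe sets. Leaving out 4 h array B (adjusted p = 0.0765), 8 h array A (0.0603) or 8 h array B (0.0614) ended that call. MGL was at 1.20 ± 0.31 for the same step (limma adjusted p = 0.0678), and with the replicate letter as a block its rise was called (adjusted p = 0.00403, with 4.61% of probe sets called higher in that fit).

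At 24 h AT4G33150 differed from 8 h by 0.06 ± 0.37 (limma adjusted p = 0.974), with an interval from -0.78 to 0.90. MGL differed by 0.45 ± 0.31 (limma adjusted p = 0.567; interval from -0.24 to 1.14), where 1.35% of probe sets were called higher. With the replicate block the step of MGL was 0.82 and called (adjusted p = 0.0414, with 3.36% of probe sets called higher), whereas that of AT4G33150 was 0.56 and not called (adjusted p = 0.0653). At 48 h AT4G33150 differed from 24 h by 1.11 ± 0.37 (limma adjusted p = 0.145; interval from 0.27 to 1.95) and MGL by 0.66 ± 0.31 (limma adjusted p = 0.324; interval from -0.03 to 1.35), with 2.48% of probe sets called higher. Without 48 h array B these steps were 0.77 for AT4G33150 and 0.55 for MGL (adjusted p = 0.493 and 0.63). With the replicate block both steps were called (adjusted p = 0.00161 for AT4G33150 and 0.038 for MGL), as were the rises of 6.48% of probe sets.

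The genes also moved in the same direction between replicates. At 24 h and at 48 h array C was below array B for both genes, and at 4 h and at 8 h array B was below array A for both. How many other probe sets moved the same way between these arrays was not counted. Whether whole arrays shifted was not tested. At the end of the night array C was the lowest array for both genes, by 0.78 log2 units for MGL and 0.94 for AT4G33150 below the lower of A and B. Array C was at least 0.5 below both others there for 2.24% of all probe sets. Without end of night array C the 4 h differences were 3.50 for MGL and 1.87 for AT4G33150, and both were still called (adjusted p = 6.12e-05 and 0.00416).

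The signal of AT4G33150 minus that of MGL on the same array was followed to see where the courses parted. Only its change over time can be read, since probe sets differ in brightness. Relative to the mean at the end of the night it was -0.14 at 2 h, -1.51 and -1.66 at 4 h, and -0.86 at 6 h. It was -0.46 and -0.38 at 8 h, -0.79 and -0.83 at 24 h, and -0.13 and -0.59 at 48 h. The gap in favour of MGL was thus widest at 4 h, with both arrays outside the range of all other times, and narrower at 8 h.

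Averaged over the extended night arrays, the change of AT4G33150 was smaller than that of MGL. This pools unlike times and does not show a smaller change at each of them. The within-array difference averaged 0.85 log2 units lower on the 10 extended night arrays than on the 4 earlier arrays (exact two-sided permutation test, p = 0.002, the smallest p that 1001 splits allow). The 4 earlier arrays included the array at -2 h, which stood at 0.46 relative to the end of night mean. The same exact test gave p = 0.002, again the smallest possible, for each gene alone. Mean signals were 11.62 against 6.93 for MGL and 10.94 against 7.10 for AT4G33150. Both genes were chosen with earlier results of these data known, so these tests add no independent support. At 4 h the mean was -1.59 and both arrays lay below all 3 end of night arrays, for which the exact two-sided permutation test gave p = 0.2, the smallest that 2 against 3 arrays allow. The 4 arrays at 24 h and 48 h averaged 0.39 above the 5 arrays at 4 h to 8 h (exact two-sided permutation p = 0.317; 126 splits allow 0.0159).

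**Figure D3:**
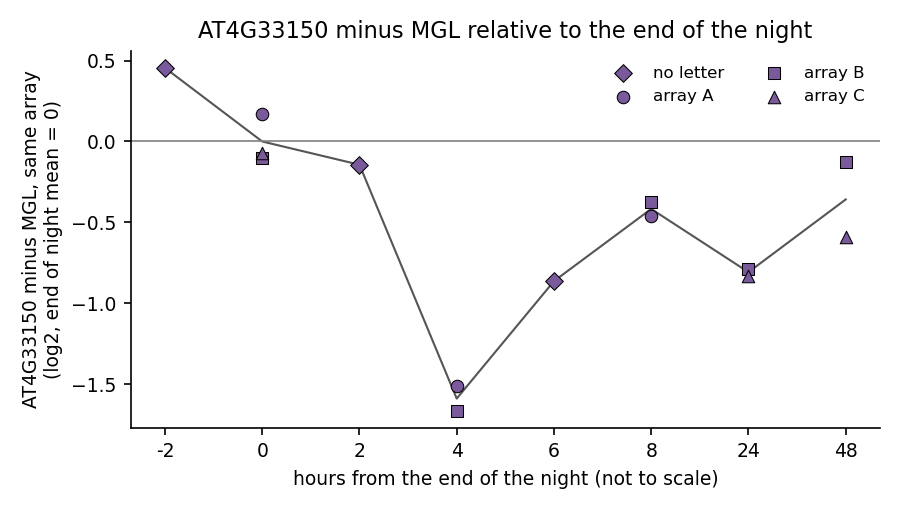
AT4G33150 minus MGL in log2 units on each of the 14 arrays, relative to the mean of the 3 end of night arrays, against hours from the end of the night with times evenly spaced. Symbols give the replicate letter and the line joins time point means; the lowest points are -1.51 and -1.66 at 4 h.

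The genes of the steps that follow saccharopine and 2-oxobutyrate were examined next. Of 19 listed, 10 were measured, and 7 rose and 1 fell at 8 h, where 12.7% of probe sets were called higher and 15% lower. The median difference was 1.21 log2 units, against 0.01 over all probe sets. At 24 h 7 rose and 2 fell, with 15.5% and 17.2% of probe sets called in those directions, and the median was 0.98, against 0.02 over all probe sets. The list was drawn up with earlier results of these data known.

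On the lysine side ALDH7B4 and AT1G07040, which act after LKR/SDH, rose most among the measured genes of the list. ALDH7B4, the aldehyde dehydrogenase of aminoadipic semialdehyde, rose by 4.27 ± 0.15 at 8 h and 4.14 ± 0.15 at 24 h (limma adjusted p = 3.68e-07 and 3.22e-07). AT1G07040, a hydroxyglutarate synthase of the same route, rose by 4.01 ± 0.18 at 8 h and 3.71 ± 0.18 at 24 h. ALDH7B4 had already risen by 3.08 ± 0.15 and AT1G07040 by 3.09 ± 0.18 at 4 h, when AT4G33150 was at 2.20 ± 0.34. As shares of their own 48 h differences these 4 h values were 65% for ALDH7B4 and 71.5% for AT1G07040, beside the 38.3% of AT4G33150. Without 48 h array B they were 66.5% for ALDH7B4 and 77% for AT1G07040, beside the 40.7% of AT4G33150.

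In the electron route, ETFQO rose by 3.48 ± 0.33 at 8 h and 2.51 ± 0.33 at 24 h, and ETFBETA, a subunit of ETF, by 1.51 ± 0.12 at 8 h and 1.3 ± 0.12 at 24 h. The other subunit, ETFALPHA, rose by 0.94 ± 0.22 at 8 h and 0.86 ± 0.22 at 24 h. Its calls were lost without 8 h array B (adjusted p = 0.0742) and without 24 h array B (adjusted p = 0.104). D2HGDH, which oxidises D-2-hydroxyglutarate, rose by 0.91 ± 0.16 at 8 h and 0.79 ± 0.16 at 24 h. ETFALPHA and D2HGDH, like the next genes apart from AT3G23940, were named after their values were seen.

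On the 2-oxobutyrate side the directions were mixed. AT2G31810, a regulatory subunit of acetolactate synthase, rose by 1.48 ± 0.14 at 8 h and 1.11 ± 0.14 at 24 h. AT3G23940, the dihydroxyacid dehydratase of the same branched-chain synthesis pathway, fell by 1.16 ± 0.17 at 8 h and fell by 1.43 ± 0.17 at 24 h (limma adjusted p = 7.50e-04 and 1.57e-04). AT5G09300, a subunit of the branched-chain keto acid dehydrogenase, fell by 0.86 ± 0.24 at 24 h. It was not called when end of night A (adjusted p = 0.0532), end of night B (0.0601) or 24 h C (0.187) was dropped. AT3G58610, ketol-acid reductoisomerase, was at -0.39 ± 0.15 at 24 h (adjusted p = 0.0793). It was called at 24 h with the replicate block (-0.32, adjusted p = 0.0442), without end of night array C (-0.52, adjusted p = 0.0217) and without 24 h array B (-0.57, adjusted p = 0.0498). With the block 3 genes of the list, against 1 without it, fell at 8 h.

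**Figure D4:**
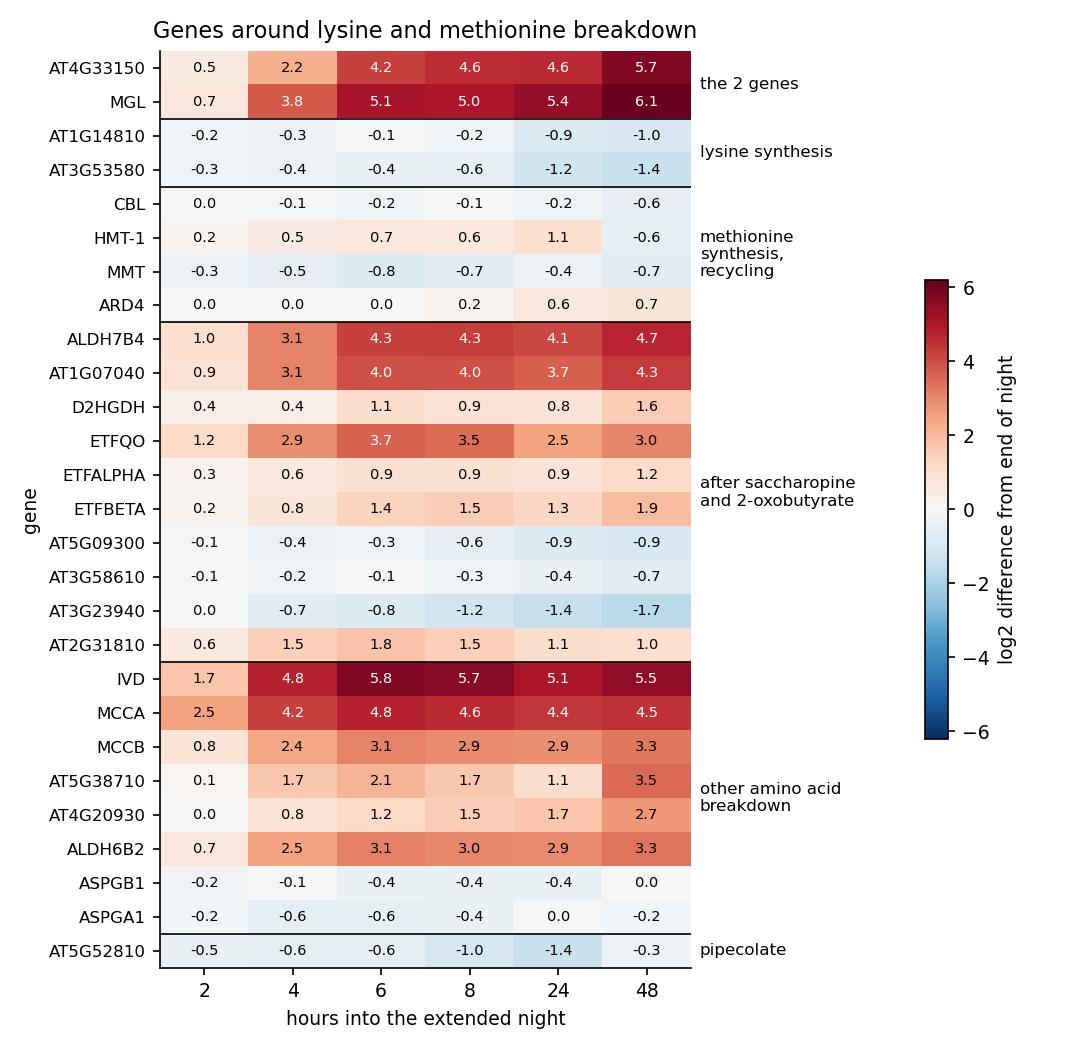
Log2 difference from the end of the night (colour and printed value) for AT4G33150, MGL and the 25 measured genes of 5 lists at 2, 4, 6, 8, 24 and 48 h into the extended night. The darkest red at 8 h and 24 h is that of AT4G33150, MGL, IVD, MCCA, ALDH7B4 and AT1G07040. Of the lysine synthesis genes, AT3G53580 is at -0.57 at 8 h and -1.24 at 24 h. AT1G14810 is at -0.20 (not called) and -0.87.

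Of 15 listed genes of lysine synthesis, 2 were measured, and both moved the other way from LKR/SDH at 24 h. Among all probe sets 15% were called lower at 8 h, 17.2% at 24 h and 20.3% at 48 h. AT3G53580, diaminopimelate epimerase late in lysine synthesis, fell by 1.24 ± 0.15 at 24 h (limma adjusted p = 1.86e-04), and AT1G14810, aspartate-semialdehyde dehydrogenase at the entry to the aspartate family, fell by 0.87 ± 0.15 (limma adjusted p = 0.0015). Both were also lower at 48 h, at -1.37 ± 0.15 for AT3G53580 and -0.97 ± 0.15 for AT1G14810, and without 48 h array B at -1.25 and -1.18 (adjusted p = 7.22e-04 and 3.52e-04). At 8 h AT3G53580 was at -0.57 ± 0.15 (adjusted p = 0.018), which was not called when end of night A (adjusted p = 0.0569), end of night C (0.0511) or 8 h B (0.146) was dropped. AT1G14810 was at -0.20 ± 0.15 at 8 h (adjusted p = 0.406). The 1 measured gene of 3 for pipecolate, a defence compound made from lysine, was the reductase AT5G52810, which fell by 1.05 ± 0.12 at 8 h, fell by 1.39 ± 0.12 at 24 h, and was at -0.30 ± 0.12 at 48 h (adjusted p = 0.0775; -0.24 without array B, adjusted p = 0.275).

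Genes that make, activate or recycle methionine were called in both directions at 8, 24 and 48 h, with differences of at most 1.06 log2 units in size, beside 4.99 or more for MGL. Of 25 listed, 4 were measured, of which 1 rose and 1 fell at 8 h, 2 rose and 1 fell at 24 h, and 1 rose and 3 fell at 48 h. Among all probe sets 12.7% were called higher and 15% lower at 8 h, 15.5% and 17.2% at 24 h, and 20.5% and 20.3% at 48 h. The median differences of the 4 genes were 0.05 at 8 h, 0.22 at 24 h and -0.57 at 48 h, against 0.01, 0.02 and 0.03 over all probe sets. Without 48 h array B, 1 rose and 2 fell at 48 h. HMT-1, a homocysteine S-methyltransferase, rose by 0.63 ± 0.14 at 8 h, which was not called when 8 h array A was dropped (adjusted p = 0.0898). It rose by 1.06 ± 0.14 at 24 h and fell by 0.58 ± 0.14 at 48 h, where it was not called without array B (-0.41, adjusted p = 0.0865). MMT, which makes S-methylmethionine from methionine, fell by 0.70 ± 0.12 at 8 h and was at -0.66 ± 0.12 at 48 h (limma adjusted p = 0.00142), or -0.75 without 48 h array B (adjusted p = 0.00364). Its fall at 24 h (-0.38 ± 0.12, adjusted p = 0.0325) was no longer called with median centring (adjusted p = 0.0806), with trend and robust settings (0.0742), or when end of night A (0.0621), end of night B (0.0996), 24 h B (0.144) or 24 h C (0.107) was dropped. ARD4, an acireductone dioxygenase-like protein of methionine salvage, rose by 0.64 ± 0.15 at 24 h, a call lost without 24 h array C (adjusted p = 0.0749). CBL, cystathionine beta-lyase of methionine synthesis and named after its values were seen, was at -0.21 ± 0.10 at 24 h (adjusted p = 0.169). It was at -0.57 ± 0.10 at 48 h (limma adjusted p = 0.0016), and at -0.57 without 48 h array B (adjusted p = 0.00955).

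Other amino acid breakdown genes were set beside them. Of 24 listed, 8 were measured, with 6 rises at 8 h, where 12.7% of all probe sets were called higher, and 5 at 24 h, where 15.5% were. The median differences were 2.28 at 8 h and 2.30 at 24 h, against 0.01 and 0.02 over all probe sets. This list too was drawn up with earlier results of these data known, so its counts and medians are not independent support. IVD and MCCA of leucine breakdown stood at 5.65 ± 0.28 and 4.62 ± 0.18 at 8 h, on either side of the 4.99 of MGL. ALDH6B2 of valine breakdown rose by 2.96 ± 0.14 and MCCB, the partner subunit of MCCA, by 2.91 ± 0.17. The rest of the list, named after its values were seen, moved less at 8 h. AT5G38710 rose by 1.65 ± 0.45, a call lost without end of night array C or either 8 h array, and was not called at 24 h (adjusted p = 0.0956). AT4G20930 rose by 1.54 ± 0.16. ASPGB1 (-0.41 ± 0.20, adjusted p = 0.172) and ASPGA1 (-0.40 ± 0.18, adjusted p = 0.143) were not called. At 2 h MCCA alone of the 25 measured genes of the lists was called, at 2.51 ± 0.23 (limma adjusted p = 0.00238). That time had 1 array, assumed to vary like the replicated groups, and 0.435% of all probe sets were called in either direction. MGL was then at 0.68 and AT4G33150 at 0.53.

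The genes with the most similar courses were found by Pearson's r across the 8 time point means, over the 13513 probe sets with a single gene. These values are descriptions, since all points share the same arrays. The course of AT4G33150 was most like those of AT3G06170 (r = 0.9997), AT4G16670 (0.998), AT1G76590 (0.997), FIS1B, a protein of organelle division (0.996), and AT5G52550 (0.996). The course of MGL was most like those of AT5G18130 (r = 0.997), AT5G66050 (0.996), pEARLI4 (0.996), AT1G18160 (0.995) and AT2G40640 (0.994). Of these, AT1G76590 climbed furthest, with 3.79 at 8 h and 4.92 at 48 h, while AT3G06170 was at 1.0 and 1.27.

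MGL and AT4G33150 had r = 0.977 with each other, at place 92 in the order for AT4G33150 and 93 in that for MGL. Among the listed genes, ALDH7B4 stood at place 6 in the order for MGL (r = 0.994) and at place 170 in that for AT4G33150 (r = 0.969). ETFBETA stood at place 11 for AT4G33150 (r = 0.993) and at place 225 for MGL (r = 0.964). These were the best placed list genes for each member, and others of the same list stood far lower. For MGL and AT4G33150 in turn, AT1G07040 was at places 20 and 222, and D2HGDH at 861 and 487. ETFQO was at 568 and 1177, and AT2G31810 at 1276 and 2205. AT3G23940 ran the opposite way (r = -0.964 and -0.962).

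**Figure D5:**
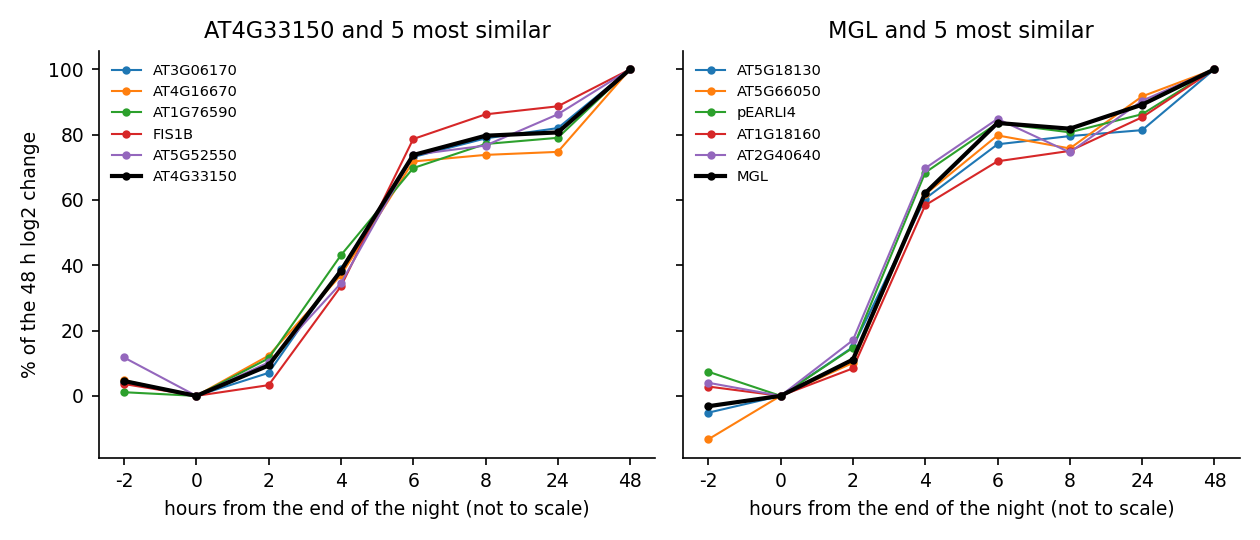
Time point means relative to the end of the night, as a percentage of each gene's own 48 h log2 difference, for AT4G33150 (left) and MGL (right) in black and their 5 most similar genes in colour, with times evenly spaced. At 4 h AT4G33150 stands at 38.3% and MGL at 62.1%.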

How the data were processed

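The deposited table holds log2 values for 22810 probe sets on 14 arrays; the submitters' processing notes name RMA, for which no version was found in the labels or the table. The authors' values were used as deposited. The 64 Affymetrix controls were left out of the tests, and no filter was set on signal. In the array annotation 13513 probe sets had a single gene, 503 had several and 8730 had none. Gene names followed RefSeq TAIR10.1, where 13436 of the single genes were found. A gene with several probe sets took the brightest.

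One limma 3.58.1 fit (R 4.3.3; lmFit and eBayes, two-sided) covered 14 arrays with the 8 times as a factor, without a replicate term, and left 6 residual degrees of freedom. A lone array was assumed to vary like the replicated groups. P-values were adjusted by Benjamini-Hochberg over all 22746 probe sets and called under 0.05. The fit was checked on simulated data. Exact permutation tests, tables and plots used Python 3.11.15. The number of arrays limits the precision.

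Members and the 5 gene lists were chosen with earlier results of these data known. Named genes were both members, the 5 most similar courses of each, up to 4 called members of each list with the largest changes at 8 h and at 24 h, and all measured members of lists with 3 or fewer.

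Deviations from time point means correlated at 0.17 to 0.58 in the 16 pairs of arrays sharing a letter. In the 32 pairs with different letters they correlated at -0.58 to 0.37, a range that overlaps. Letters were taken to pair samples in the replicate block. Deviations in 2-array groups are exact opposites, so these pairs are not independent and do not establish the pairing. Alternatives were median centring, a second quantile normalization, dropping the dimmest 33.3% of probe sets, trend and robust eBayes, a replicate block, fewer arrays, an adjusted p under 0.01, and medians in the exact tests. Sequences and genome positions were not used here.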

Additional observations from a re-analysis of the deposited data

How the results depend on the processing

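For the differences from the night's end at 4, 6, 8, 24 and 48 h, all 186 alternative values of MGL and AT4G33150 kept direction and call. Leaving out 1 array gave 3.50 to 3.98 for MGL and 1.87 to 2.47 for AT4G33150 at 4 h, and 5.81 to 6.30 and 5.40 to 6.09 at 48 h. The replicate block, in a fit of the 11 lettered arrays, turned 4 steps between times into calls: MGL at 1.20 (8 h against 4 h), 0.82 (24 h against 8 h) and 0.66 (48 h against 24 h), and AT4G33150 at 1.11 (48 h against 24 h). It changed no other call of the 2 genes. MGL at 8 h against 4 h (1.20) was also called without the dimmest probe sets, with trend and robust settings, from the 2 time points alone and without end of night array C. Leaving out 1 array at a time, that step ranged from 1.01 to 1.40, and the same step of AT4G33150 from 2.11 to 2.64. The uncalled difference of AT4G33150 between 24 h and 8 h ranged from -0.23 to 0.34, and its uncalled difference at -2 h from -0.066 to 0.45. Signs turned without 8 h array B (-0.01) or 24 h array B (-0.23) for the first, and without end of night array C (-0.066) for the second; the cause was not tested. All 60 alternative values of the exact tests kept direction and side of the threshold.

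Counts of list genes called, with 1 array left out at a time, were 0 to 1 for falls at 8 h in lysine synthesis. They were 0 to 1 for rises at 8 h, 1 to 2 for rises at 24 h and 0 to 1 for falls at 24 h in the methionine list. In the steps after saccharopine and 2-oxobutyrate, falls were 1 to 2 at 8 h and 1 to 3 at 24 h. In other amino acid breakdown, falls were 0 to 1 at 8 h and at 24 h. With an adjusted p under 0.01, falls were 0 for lysine synthesis at 8 h, 0 for the methionine list at 24 h and 1 for the steps after saccharopine and 2-oxobutyrate at 24 h. Falls in the methionine list at 24 h were also 0 with median centring and with trend and robust settings. With the replicate block, falls at 8 h were 3 in the steps after saccharopine and 2-oxobutyrate and 1 in other amino acid breakdown. Without both 48 h arrays, falls in other amino acid breakdown were 1 at 8 h and 1 at 24 h. By r over the 14 arrays, 0 of the 5 most similar courses were shared with those over time point means, for either gene.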

Other observations

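When similarity was taken over the 14 arrays, which also counts the shifts between replicates, ALDH7B4 had the course most like that of MGL (r = 0.992, across arrays, with no test). It was followed by AT3G19390 (0.990), AT5G63200 (0.990), AT1G10140 (0.989) and WES1, an auxin-conjugating enzyme (0.989). For AT4G33150 the order was ETFBETA (r = 0.985), AT5G39520 (0.983), AT1G19540 (0.982), AT5G57910 (0.982) and AT1G19530 (0.982). Both leading genes belong to the list of steps after saccharopine and 2-oxobutyrate, which was drawn up with earlier results of these data known.

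The nearest protein-coding genes on the chromosome, chosen after the values of the members were seen, held no rise near those of the members at 24 h. Of the 3 on each side of AT4G33150, 5 were measured; their differences at 24 h ran from -0.83 for AT4G33140 (limma adjusted p = 0.0115) to 0.30 for AT4G33170 (adjusted p = 0.145). Of the 3 on each side of MGL, 3 were measured. AT1G64650 fell by 0.64 and AT1G64680 fell by 2.02 at 24 h (limma adjusted p = 0.00172 and 7.26e-05), while BLT rose by 0.47 (limma adjusted p = 0.0335). Near AT4G33150, AT4G33130 also fell, by 0.37 at 24 h (limma adjusted p = 0.0261). Among all probe sets 15.5% were called higher and 17.2% lower at that time.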
